A study of Mus musculus with 4 samples.

Results

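The TGF-beta and BMP pathway was examined in mouse embryonic fibroblasts (MEFs), the connective tissue cells grown from dissociated mouse embryos. The 44 genes described here were taken by symbol from a list of ligands, receptors, Smads, antagonists, latent TGF-beta binding proteins, regulators and Id targets. They are 44 of the 36846 gene symbols in the deposited transcript table, and the rule uses symbols alone. RNA had been sequenced from wild-type cells (WT, 2 libraries) and from cells that lack Dnmt3l (Dnmt3l-KO, 2 libraries). Dnmt3l encodes a catalytically inactive partner of the de novo DNA methyltransferases.

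Both genotypes were C57BL/6 MEF lines at passage 4, obtained by crossing Dnmt3l+/- parents and taking embryos at day 13.5 to 14.5. They were grown in DMEM with 10% fetal bovine serum, which itself brings TGF-beta family ligands to the cells. The study looked for genes behind the better outcome of cloned embryos made with Dnmt3l-KO cells. Whether both libraries of a genotype stem from 1 embryo or line, or from several, is not stated in the labels, so p-values here measure only the spread between these libraries, which may be technical.

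TGF-beta family ligands are secreted dimers that bring a type II and a type I receptor serine/threonine kinase together. The type I receptor then phosphorylates a receptor-activated Smad, which joins Smad4 and enters the nucleus. TGF-beta and activin act mainly through Smad2 and Smad3, and BMPs through Smad1, Smad5 and Smad9. In fibroblasts TGF-beta is best known as an inducer of collagen and of the contractile state, and BMP signalling as an inducer of the Id genes and of its own inhibitor Smad6.

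Library totals ran from 40681328 to 51465395 estimated counts. The 44 genes together held 3834 and 3984 CPM (counts scaled to a common library total) in WT against 4058 and 4164 in Dnmt3l-KO. Here as elsewhere, values of a genotype are given for library 1 and then library 2. Dnmt3l had 6 and 1 counts in WT and 0 in both Dnmt3l-KO libraries over its 6 transcripts, so its level does not check the genotype labels. Fibroblast markers were abundant, with a summed level of 12651 and 11237 CPM in WT against 10778 and 16096 CPM in Dnmt3l-KO over 10 of 10 detected genes. Macrophage and leukocyte markers summed to 9.78 to 13.0 CPM, endothelial markers to 6.20 to 18.8 CPM and epithelial markers to 3.97 to 7.62 CPM, with Krt5 and Krt14 at 0 in all libraries. Neural and glial markers summed to 109.8 to 155.0 CPM, mostly from Nes and Tubb3. Skeletal muscle markers summed to 16.2 to 27.2 CPM, nearly all from Des, with Pax7 at 0 in all libraries. In bulk RNA of this kind, fewer cells of a type and less RNA per cell cannot be told apart.

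All 44 genes passed edgeR's expression filter, and none passed the threshold for a genotype difference after adjustment. With 2 libraries per genotype, that does not show that the levels were equal. In edgeR's quasi-likelihood test, 0 of 44 passed an adjusted p of 0.05, in a comparison in which 0.0203% of all 14760 genes tested did. The lowest adjusted p of the 44 was 0.999. DESeq2 and limma-voom also called 0 of the 44. At an unadjusted p under 0.05, 3 of 44 were higher in Dnmt3l-KO, beside 2.34% of all genes. These were Tgfb1, Ltbp3 and Ltbp4, a ligand and 2 of the proteins that hold such ligands in a latent complex. None of the 44 was lower at that level, beside 1.81% of all genes. The count of 3 depended on the fit, and limma-voom gave 2, Tgfb1 and Ltbp3. It also depended on each library. With a Dnmt3l-KO library left out, genes lower in Dnmt3l-KO reached that level too. Examples are Skil without Dnmt3l-KO 1 and Tgfbr2 without Dnmt3l-KO 2.

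Counted on CPM without a test, both Dnmt3l-KO libraries lay above both WT libraries for 8 of 44 genes, beside 16.2% of all genes. The 8 were Tgfb1, Tgfb3, Bmp6, Acvr1b, Bmpr2, Ltbp3, Ltbp4 and Ski. Both lay below for Bmp7, Tgfbr1 and Smad5, 3 of 44, beside 16.5% of all genes. Under upper-quartile scaling 5 lay below. The share above was close to that of all genes. The median log2 fold change of the 44 was 0.09, with 30 above and 14 below 0, against a median of 0.0062 with 51.3% above 0 over all genes. Single genes ran from -0.53 (Bmp7) to 1.64 (Bmp6), both genes with few counts.

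**Figure D1:**
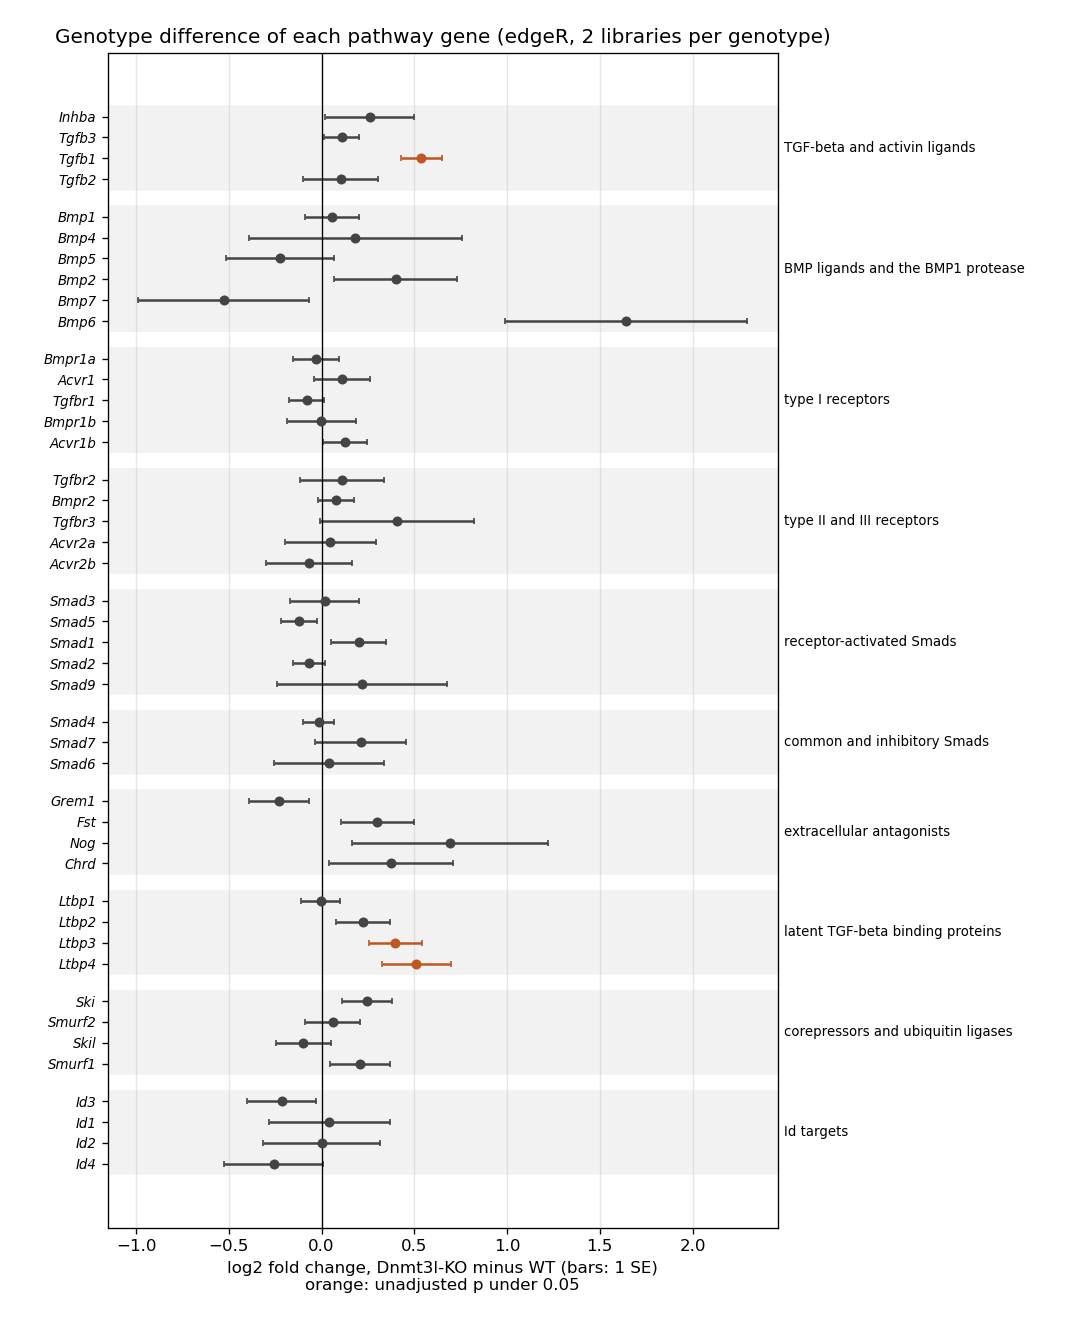
Log2 fold change (Dnmt3l-KO minus WT) of each of the 44 genes on the x axis, grouped by role, with bars of 1 SE from edgeR (2 libraries per genotype). Orange marks the 3 genes at an unadjusted p under 0.05, Tgfb1, Ltbp3 and Ltbp4, and the wide bars of Bmp6 and Bmp7 go with their low counts.

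Levels per length differed far more between the genes than between the libraries. They are given as FPKM, fragments scaled to transcript length and sequencing depth, summed over the transcripts of a gene. Id3 had the highest mean, 206.8 FPKM, followed by Ltbp1 at 97.3, Grem1 at 94.1, Id1 at 68.3 and Inhba at 52.5 FPKM. At the other end stood Bmp2 at 0.658, Acvr2b at 0.281, Bmp7 at 0.145 and Bmp6 at 0.113 FPKM. Of the 43 pairs of neighbours in this order, 6 had ranges over the 4 libraries that did not overlap: Id3 and Ltbp1, Tgfb3 and Bmp1, Smad2 and Tgfbr1, Bmp5 and Bmp2, Bmp2 and Acvr2b, and Acvr2b and Bmp7. The ranges of the other neighbours overlapped, which does not show that their levels were equal.

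**Figure D2:**
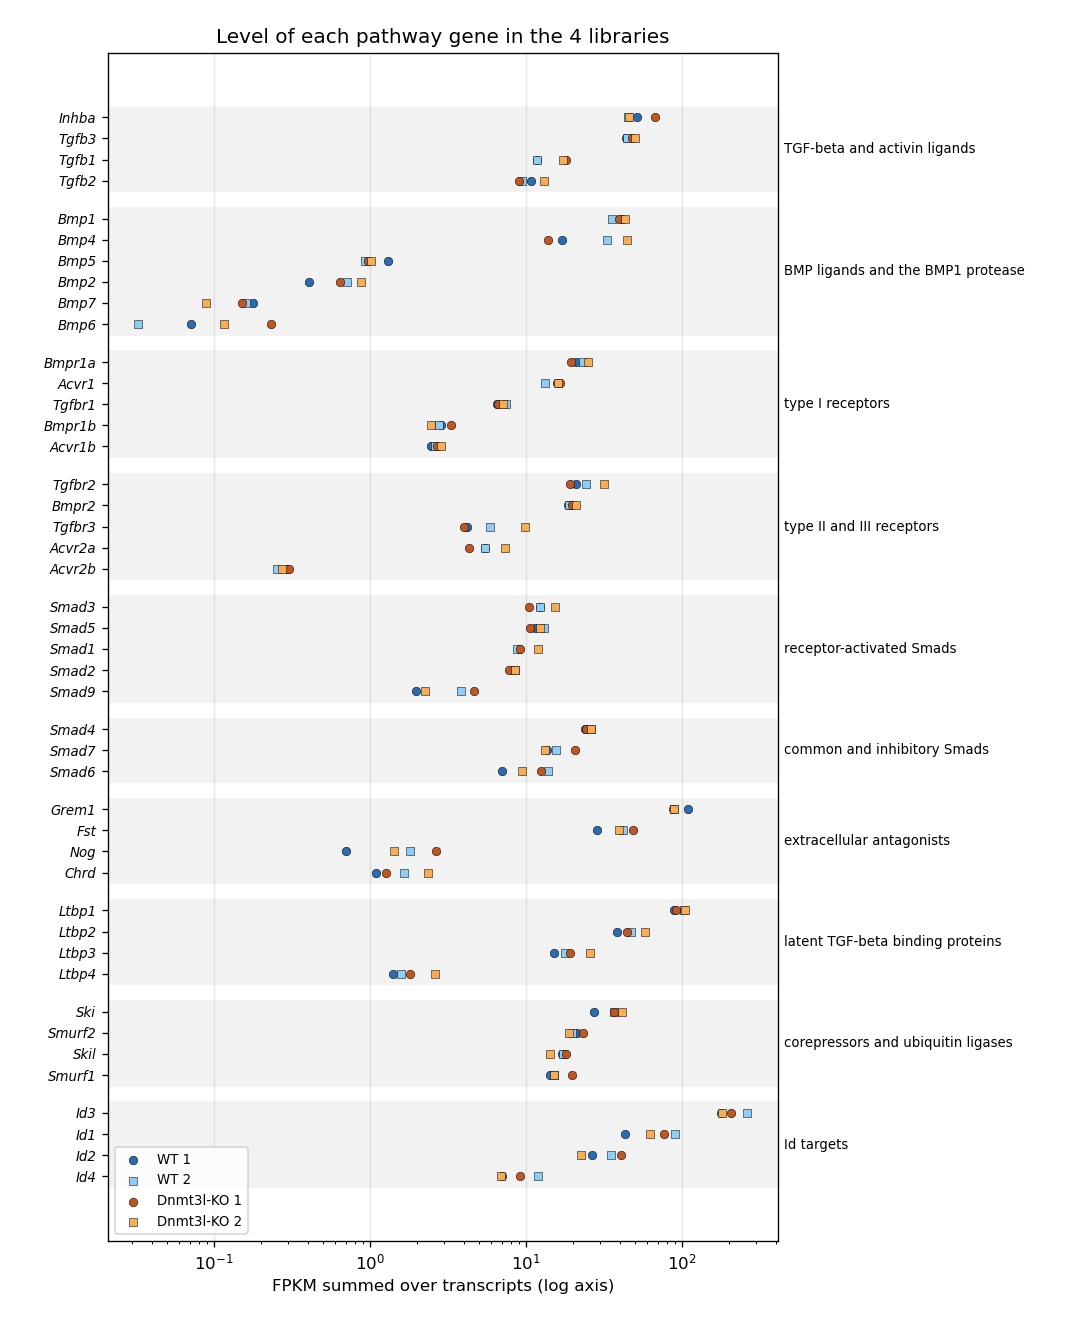
FPKM of the 44 genes in each of the 4 libraries on a log axis, grouped by role and ordered by mean level within a role. Id3, at 177 to 263 FPKM, is the highest, Bmp7 and Bmp6 are the lowest, and Bmp6, Nog, Bmp4 and Tgfbr3 show the widest spread between libraries.

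Among the TGF-beta and activin ligands, Tgfb1 showed the clearest genotype difference. Tgfb1 encodes TGF-beta1, the isoform best known for fibroblast activation, and lies at chr7:25687002-25705077 (GRCm38). Its level was 28.9 and 26.3 CPM in WT against 41.9 and 38.4 CPM in Dnmt3l-KO. The groups did not overlap, and the gap between them was wider than the distance between the libraries of either genotype. The means were 27.6 ± 1.86 and 40.1 ± 2.47 CPM (SD, n = 2 each), 1.45-fold higher in Dnmt3l-KO. The log2 fold change was 0.54 ± 0.11 (SE), with an unadjusted p of 0.00417 and an adjusted p of 0.999 (edgeR). Tgfb1 has 1 transcript in the table, for which the authors' deposited table gives a log2 fold change of 0.49 ± 0.20, a p of 0.0158 and an adjusted p of 0.581.

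Since Dnmt3l acts with enzymes that methylate CpG sites, the 250 bases before the RefSeq start of Tgfb1 are shown with each CpG in capitals (chr7:25686752-25687001, GRCm38.p6, + strand). No GENCODE exon overlaps this stretch, which is 75.2% G and C and holds 21 CpG sites. Methylation was not measured in these files.
Tgfb1: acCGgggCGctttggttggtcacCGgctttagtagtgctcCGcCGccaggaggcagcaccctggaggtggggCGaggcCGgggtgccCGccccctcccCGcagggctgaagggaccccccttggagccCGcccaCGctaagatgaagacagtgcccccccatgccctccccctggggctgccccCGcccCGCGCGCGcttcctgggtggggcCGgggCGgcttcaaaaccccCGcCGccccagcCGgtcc

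Tgfb3, the most abundant of the 3 TGF-beta ligand genes per length, had a mean of 46.5 FPKM. On the CPM scale its libraries stood at 174 and 160.3 in WT and 179.8 and 180.02 in Dnmt3l-KO, so the groups were apart by a small step (1.08-fold). Tgfb2 was counted at 52.9 and 43.8 CPM in WT against 43.2 and 60.7 CPM in Dnmt3l-KO, with overlapping groups. Inhba encodes the beta A subunit of activin A, and was the highest of these ligands per length. It was read at 116 and 95.9 CPM in WT and at 155 and 98.5 CPM in Dnmt3l-KO. Dnmt3l-KO 1 stood above the other 3 libraries, and the log2 fold change of 0.26 ± 0.24 (SE, edgeR, unadjusted p = 0.33) turned to -0.11 without it.

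Ltbp genes encode large matrix proteins, several of which bind the latent form of TGF-beta and anchor it in microfibrils. Ltbp1 was the highest of them per length and among the steadiest of the 44 genes. It had 554 and 579.7 CPM in WT against 542 and 588 CPM in Dnmt3l-KO, for a log2 fold change of -0.0046 ± 0.11 (SE, edgeR, unadjusted p = 0.967). The value of Ltbp2 was 309 and 348 CPM in WT against 342 and 424 CPM in Dnmt3l-KO. Dnmt3l-KO 2 was the highest library for both, and the groups overlapped.

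Ltbp3 (chr19:5740900-5758536) had 85.2 and 93.2 CPM in WT against 103.8 and 131.3 CPM in Dnmt3l-KO. The groups did not overlap, with means of 89.2 ± 5.68 and 118 ± 19.5 CPM (SD, n = 2 each). Its log2 fold change was 0.40 ± 0.14 (SE), with an unadjusted p of 0.037 and an adjusted p of 0.999 in edgeR. The size rested on Dnmt3l-KO 2, without which the log2 fold change was 0.22.

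Ltbp4 (chr7:27305140-27339720), the least abundant of these genes at 1.86 FPKM, had 8.34 and 8.60 CPM in WT against 10.3 and 13.9 CPM in Dnmt3l-KO. Here too the groups did not overlap, and Dnmt3l-KO 2 was the highest library. The means were 8.47 ± 0.183 and 12.1 ± 2.59 CPM (SD, n = 2 each). The log2 fold change was 0.51 ± 0.19 (SE), with an unadjusted p of 0.0402 and an adjusted p of 0.999 in edgeR, and it was 0.27 without Dnmt3l-KO 2.

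The stretches before the RefSeq starts of Ltbp3 and Ltbp4 are shown because these genes lay on the same side as Tgfb1 and differ in base composition, with each CpG in capitals. That of Ltbp3 (chr19:5740650-5740899, + strand) is 47.2% G and C with 2 CpG sites. The table holds 3 starts for Ltbp4, all within the gene's bounds, and the stretch shown (chr7:27333664-27333913, - strand, 79.2% G and C, 28 CpG sites) is the one that overlaps no GENCODE exon. The other two overlap an exon of Ltbp4 and hold 15 and 29 CpG sites. That of Ltbp3 overlaps no exon either.
Ltbp3: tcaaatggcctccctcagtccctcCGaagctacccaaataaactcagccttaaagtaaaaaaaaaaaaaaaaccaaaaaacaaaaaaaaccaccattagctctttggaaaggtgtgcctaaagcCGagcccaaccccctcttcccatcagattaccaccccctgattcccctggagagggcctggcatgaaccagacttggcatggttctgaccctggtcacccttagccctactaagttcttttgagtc
Ltbp4: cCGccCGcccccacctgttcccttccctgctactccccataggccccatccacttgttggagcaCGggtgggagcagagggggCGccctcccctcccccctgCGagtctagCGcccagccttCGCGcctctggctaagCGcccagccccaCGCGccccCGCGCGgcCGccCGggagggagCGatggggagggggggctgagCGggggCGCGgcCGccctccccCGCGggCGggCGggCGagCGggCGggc

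The transcript counts of Ltbp3 and Ltbp4 were uneven. Ltbp3 has 8 transcripts in the table, and its leading one held 49.7% of the gene's FPKM on average. Predicted variant X4 had counts of 212 and 238 (WT) against 504 and 506 (Dnmt3l-KO), and X3 had counts of 457 and 298 (WT) against 791 and 671 (Dnmt3l-KO). Both variants, those with the smallest p, lay apart by genotype. Others did not: X6 had counts of 311 and 190 (WT) against 59 and 359 (Dnmt3l-KO), and X1 had counts of 416 and 621 (WT) against 122 and 987 (Dnmt3l-KO). The leading transcript had a log2 fold change of 0.28 ± 0.18 (SE, edgeR, unadjusted p = 0.181). For X4, the authors' deposited table gives a log2 fold change of 0.90 ± 0.29 and an adjusted p of 0.185, the lowest of any of the 120 transcripts of the 44 genes with an adjusted p there. None of the 120 was under 0.05 there, against 124 of 28097 transcripts in all. Ltbp4 has 4 transcripts, and the leading one differed between the genotypes. Variant 2 led in both WT libraries, with 63.7% and 42.1% of the FPKM. Predicted variant X2 led in both Dnmt3l-KO libraries, with 32.9% and 47.9%, against 32.5% and 38.9% for variant 2. Variant 2 had counts of 252 and 152 (WT) against 167 and 231 (Dnmt3l-KO). Its log2 fold change was -0.02 ± 0.44 (SE, edgeR, unadjusted p = 0.964). X2 had counts of 100 and 108 (WT) against 161 and 270 (Dnmt3l-KO). No source used here says how reads shared by variants were divided.

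Most of the BMP ligand genes were weakly expressed. Bmp1, which is no BMP ligand but a protease that cleaves procollagens and the BMP antagonist chordin, was the highest per length in this group, at 35.6 to 43.5 FPKM. Its level was 183 and 142 CPM in WT against 164 and 174 CPM in Dnmt3l-KO. The log2 fold change of 0.06 ± 0.15 (SE, edgeR, unadjusted p = 0.716) turned to -0.12 without WT 2. Bmp2 held 1.70 and 2.68 CPM in WT against 2.48 and 3.30 CPM in Dnmt3l-KO. Bmp5 held 3.84 and 2.49 CPM in WT against 2.73 and 2.70 CPM in Dnmt3l-KO. Both sets of groups overlapped. Bmp7 had 36 and 26 counts in WT against 31 and 14 in Dnmt3l-KO, and the groups were apart only after scaling for depth. Bmp6 had 9 and 4 counts in WT against 31 and 12 in Dnmt3l-KO, for a log2 fold change of 1.64 ± 0.65 (SE, edgeR, unadjusted p = 0.0534). With so few counts in WT, that fold is poorly set.

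Bmp4, the main BMP ligand gene of these cells at a mean of 27.2 FPKM, split the libraries by number and not by genotype in its summed level. It lies at chr14:46383525-46390669. Its CPM was 36.1 in WT 1 but 64.2 in WT 2, and 28.2 in Dnmt3l-KO 1 but 85.7 in Dnmt3l-KO 2. Library 2 was 1.78-fold above library 1 in WT and 3.04-fold above it in Dnmt3l-KO, while the genotype means stood at 50.2 ± 19.9 and 57.0 ± 40.6 CPM (SD, n = 2 each). The 250 bases before its RefSeq start, free of GENCODE exons, are shown as those of the gene with the widest spread among the abundant ligands (chr14:46390670-46390919, - strand, 63.2% G and C, 11 CpG sites in capitals).
Bmp4: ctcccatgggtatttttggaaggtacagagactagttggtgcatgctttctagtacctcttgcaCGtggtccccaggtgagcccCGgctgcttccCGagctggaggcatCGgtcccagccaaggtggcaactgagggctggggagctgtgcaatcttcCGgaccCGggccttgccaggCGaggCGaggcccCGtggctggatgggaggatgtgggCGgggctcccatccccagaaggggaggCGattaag

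Type I receptors are the kinases that phosphorylate Smads, and none of the 5 was under an unadjusted p of 0.05. Bmpr1a, a BMP receptor, was the highest per length at 22.1 FPKM. It had 132 and 134 CPM in WT against 117 and 143 CPM in Dnmt3l-KO, and its log2 fold change was -0.03 ± 0.13 (SE, edgeR, unadjusted p = 0.815). Acvr1b, an activin receptor, had 11.04 and 10.7 CPM in WT against 12.1 and 11.7 CPM in Dnmt3l-KO, and its log2 fold change was 0.13 ± 0.12 (SE, edgeR, unadjusted p = 0.327). The groups of Acvr1b were apart by a small step, and those of Bmpr1a overlapped. Tgfbr1, the TGF-beta type I receptor, had 44.5 and 47.2 CPM in WT against 42.9 and 43.8 CPM in Dnmt3l-KO, the latter both just below the former. In FPKM the groups of Tgfbr1 overlapped, with 6.56 and 7.52 in WT against 6.65 and 7.11 in Dnmt3l-KO. Acvr1, a further BMP receptor, stood at 53.00 and 40.9 CPM in WT against 52.7 and 48.6 CPM in Dnmt3l-KO. Bmpr1b, another BMP receptor of this type, stood at 17.4 and 15.4 CPM in WT against 18.98 and 13.7 CPM in Dnmt3l-KO. Acvr1 and Bmpr1b overlapped between the groups.

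Type II receptors bind ligand and activate the type I chain, and the type III receptor Tgfbr3, betaglycan, presents ligand to them. Tgfbr2 was the highest per length at 24.1 FPKM. Its CPM values were 116 and 124 in WT and 101 and 158 in Dnmt3l-KO. Both WT libraries lay between the Dnmt3l-KO libraries, and the log2 fold change of 0.11 ± 0.23 (SE, edgeR, unadjusted p = 0.642) turned to -0.25 without Dnmt3l-KO 2. Tgfbr3 showed the same placing more widely, with 29.5 and 38.3 CPM in WT against 26.95 and 63.1 CPM in Dnmt3l-KO. Its log2 fold change of 0.41 ± 0.42 (SE, edgeR, unadjusted p = 0.374) turned to -0.33 without Dnmt3l-KO 2. The activin receptor gene Acvr2a, at 35.6 and 32.6 CPM in WT, had 26.8 and 43.7 CPM in Dnmt3l-KO, again on both sides of WT. The BMP receptor gene Bmpr2 was steady, at 241 and 222 CPM in WT against 242 and 246 CPM in Dnmt3l-KO. Acvr2b stayed between 2.73 and 3.23 CPM in all 4 libraries.

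Of the receptor-activated Smads, the messengers of both branches, Smad3 was the highest per length at 12.6 FPKM. It had 71.9 and 65.1 CPM in WT against 57.5 and 81.04 CPM in Dnmt3l-KO, and its log2 fold change was 0.02 ± 0.18 (SE, edgeR, unadjusted p = 0.933). The sign of so small a value is not set: it was -0.0036 in limma-voom. Smad1 had 32.95 and 29.3 CPM in WT against 31.7 and 39.8 CPM in Dnmt3l-KO, and its log2 fold change was 0.20 ± 0.15 (SE, edgeR, unadjusted p = 0.233). Dnmt3l-KO 2 was the highest library for both. Smad5 held 87.9 and 90.99 CPM in WT against 77.9 and 86.6 CPM in Dnmt3l-KO, without overlap. In FPKM the groups of Smad5 did overlap, with 11.5 and 13.0 in WT against 10.7 and 12.4 in Dnmt3l-KO. Smad2 ran from 75.1 to 82.5 CPM over all libraries. Smad9, the least abundant BMP Smad at 3.18 FPKM, spread widely within each genotype, with 12.02 and 20.9 CPM in WT against 26.5 and 11.7 CPM in Dnmt3l-KO.

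Smad4, the partner shared by both branches, was the steadiest of all 44 genes. Its highest library exceeded its lowest 1.02-fold, at 109 and 107 CPM in WT against 107 and 107 CPM in Dnmt3l-KO, for a log2 fold change of -0.02 ± 0.08 (SE, edgeR, unadjusted p = 0.859). Smad7, which inhibits both branches and is itself induced by TGF-beta, had 65.8 and 69.2 CPM in WT against 97.3 and 58.8 CPM in Dnmt3l-KO. Its log2 fold change of 0.21 ± 0.25 (SE, edgeR, unadjusted p = 0.434) turned to -0.20 without Dnmt3l-KO 1, the highest library. Smad6, which inhibits mainly the BMP branch, stood at 24.2 CPM in WT 1 but 41.5 in WT 2, and at 38.5 in Dnmt3l-KO 1 but 28.9 in Dnmt3l-KO 2. WT 2 and Dnmt3l-KO 1 were the high libraries.

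The secreted antagonists differed in how they spread. Grem1, gremlin, was the most abundant at 94.1 FPKM. It had 212 and 158 CPM in WT against 160.4 and 155 CPM in Dnmt3l-KO, and its log2 fold change was -0.23 ± 0.16 (SE, edgeR, unadjusted p = 0.212), with WT 1 alone above the rest. Fst, follistatin, which binds activin, had 86.7 and 116 CPM in WT against 140.3 and 109.8 CPM in Dnmt3l-KO, and its log2 fold change was 0.30 ± 0.20 (SE, edgeR, unadjusted p = 0.185). The highest library was Dnmt3l-KO 1 and the lowest WT 1. Nog, noggin, had 1.57 and 3.71 CPM in WT against 5.59 and 2.92 CPM in Dnmt3l-KO, the same placing as Fst at a far lower level. Chrd, chordin, had 4.37 and 5.85 CPM in WT against 4.79 and 8.49 CPM in Dnmt3l-KO, high in the libraries numbered 2 as Bmp4 was.

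Ski and Skil encode corepressors that bind Smad complexes, and Smurf1 and Smurf2 ubiquitin ligases that mark Smads and receptors for degradation. Ski was the highest per length of the 4 at 35.7 FPKM. It had 175 and 213 CPM in WT against 221 and 239.7 CPM in Dnmt3l-KO, for a log2 fold change of 0.25 ± 0.13 (SE, edgeR, unadjusted p = 0.124). The groups of Ski were apart by a small step in CPM. In FPKM they overlapped, with 36.84 in WT 2 and 36.73 in Dnmt3l-KO 1. Skil had 133 and 124 CPM in WT against 136 and 104 CPM in Dnmt3l-KO. For Smurf1 the values were 88.2 and 86.1 CPM in WT against 116 and 85.3 CPM in Dnmt3l-KO. Smurf2 followed with 113 and 109.8 CPM in WT against 131 and 101 CPM in Dnmt3l-KO. In Skil, Smurf1 and Smurf2 the WT libraries lay close together, Dnmt3l-KO 1 was the highest and Dnmt3l-KO 2 the lowest.

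Id genes encode helix-loop-helix proteins that block DNA binding by their partners and are direct targets of BMP Smads. Id3, the highest of all 44 genes per length, had 199 and 269 CPM in WT against 220.3 and 184 CPM in Dnmt3l-KO. Its log2 fold change was -0.21 ± 0.19 (SE, edgeR, unadjusted p = 0.3) and turned to 0.02 without WT 2, the highest library. Id1 had 47.1 CPM in WT 1, 90.1 CPM in WT 2, 78.8 CPM in Dnmt3l-KO 1 and 62.3 CPM in Dnmt3l-KO 2. Id2 stood at 39.96 and 48.3 CPM in WT against 57.6 and 30.7 CPM in Dnmt3l-KO. Id4 stood at 13.6 and 21.1 CPM in WT against 16.7 and 12.2 CPM in Dnmt3l-KO. In all 4 Id genes WT 2 was above WT 1 and Dnmt3l-KO 1 above Dnmt3l-KO 2, and the genotypes overlapped. The 2 Id3-like loci in the table had 0 counts in every library.

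**Figure D3:**
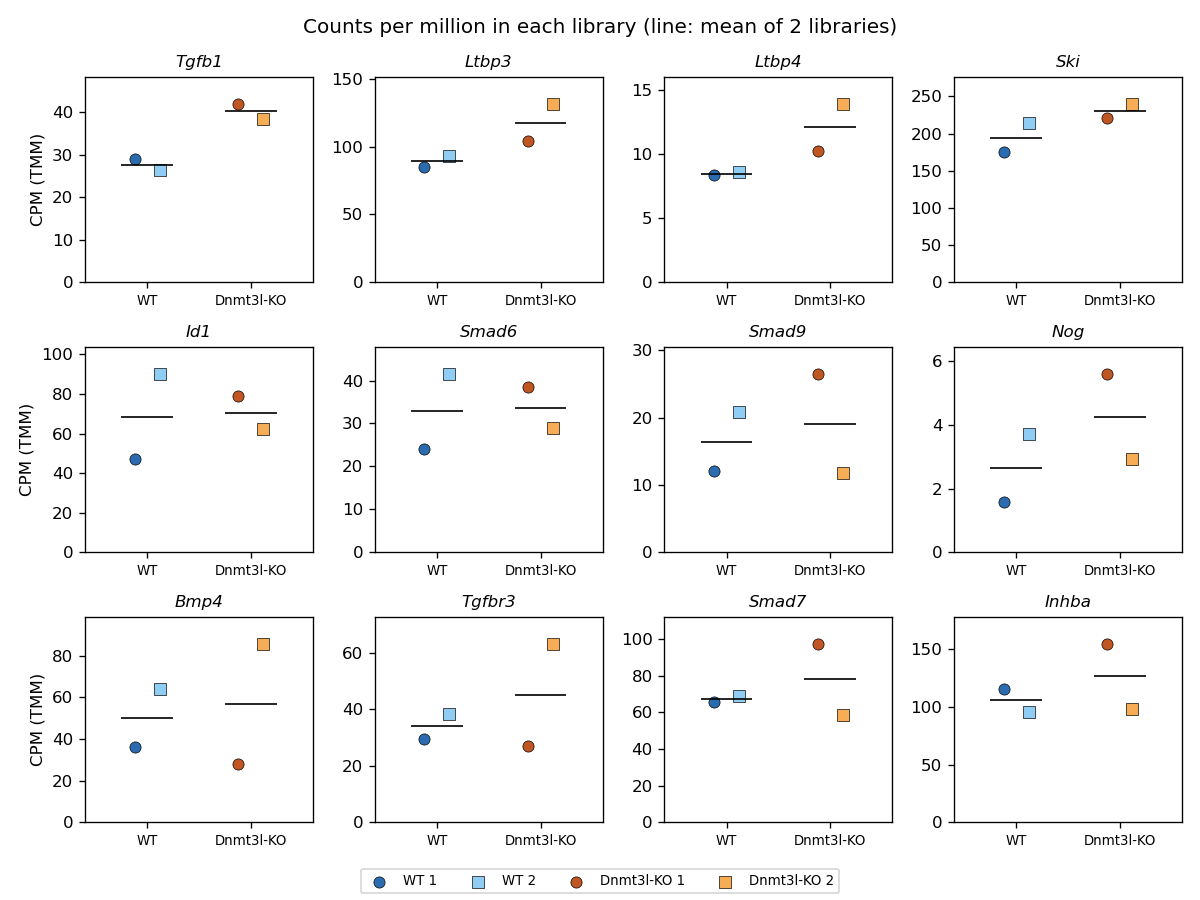
CPM of 12 genes in each of the 4 libraries, with a line at the mean of each genotype (n = 2) and each y axis starting at 0. Tgfb1, Ltbp3 and Ltbp4 lie apart by genotype, and Ski does so by a small step. Id1, Smad6, Smad9 and Nog are high in WT 2 and Dnmt3l-KO 1, and Bmp4 and Tgfbr3 are highest in Dnmt3l-KO 2.

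Within each genotype the 44 genes lay further apart than between them. The median size of the log2 difference was 0.20 between the WT libraries and 0.37 between the Dnmt3l-KO libraries, beside 0.13 and 0.23 over all genes. Between the genotypes it was 0.16, beside 0.13, and a difference of 2 means is narrower than one of single libraries by construction. The groupings that follow were formed after these values had been seen, with a step of at least 1.25-fold, and they carry no test. WT 2 was above WT 1 for 11 of 44 genes, beside 11.9% of all genes, and WT 1 above WT 2 for 5 of 44, beside 10.7%. Dnmt3l-KO 1 was above Dnmt3l-KO 2 for 15 of 44, beside 16.6%, and the reverse held for 11 of 44, beside 21%.

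High in both WT 2 and Dnmt3l-KO 1 were 6 of 44 genes, Id1, Id4, Smad6, Smad9, Nog and Fst, beside 2.62% of all genes. Id1, Id4 and Smad6 are textbook targets of BMP Smads, Smad9 is a BMP Smad itself, and Nog and Fst encode secreted antagonists. The opposite placing, high in WT 1 and Dnmt3l-KO 2, held for 0 of 44, beside 3.41%. Bmp2, Bmp4, Chrd and Tgfbr3, 4 of 44, were high in the libraries numbered 2 of both genotypes, beside 5.39%. Bmp6 alone, 1 of 44, was high in those numbered 1, beside 3.92%. Since the genes of a placing share libraries, they are not independent of each other.

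Other BMP responsive genes, which are not among the 44, were split over these placings. Atoh8 had 24.8 CPM in WT 1, 43.97 CPM in WT 2, 50.96 CPM in Dnmt3l-KO 1 and 27.3 CPM in Dnmt3l-KO 2, as Smad6 did, and Msx2 and Sp7 were placed likewise. Msx1 was instead high in WT 2 and Dnmt3l-KO 2, and Dlx5 in WT 1 and Dnmt3l-KO 1. Of 96 tested genes in the other pathway lists, 6 had the placing of Id1, namely Acvrl1, Atoh8, Gdf6, Gdf10, Msx2 and Sp7, beside 2.62% of all genes. Nearly as many, 5 of 96, had the opposite placing, namely Amhr2, Col1a1, Col1a2, Postn and Rgma, beside 3.41%.

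**Figure D4:**
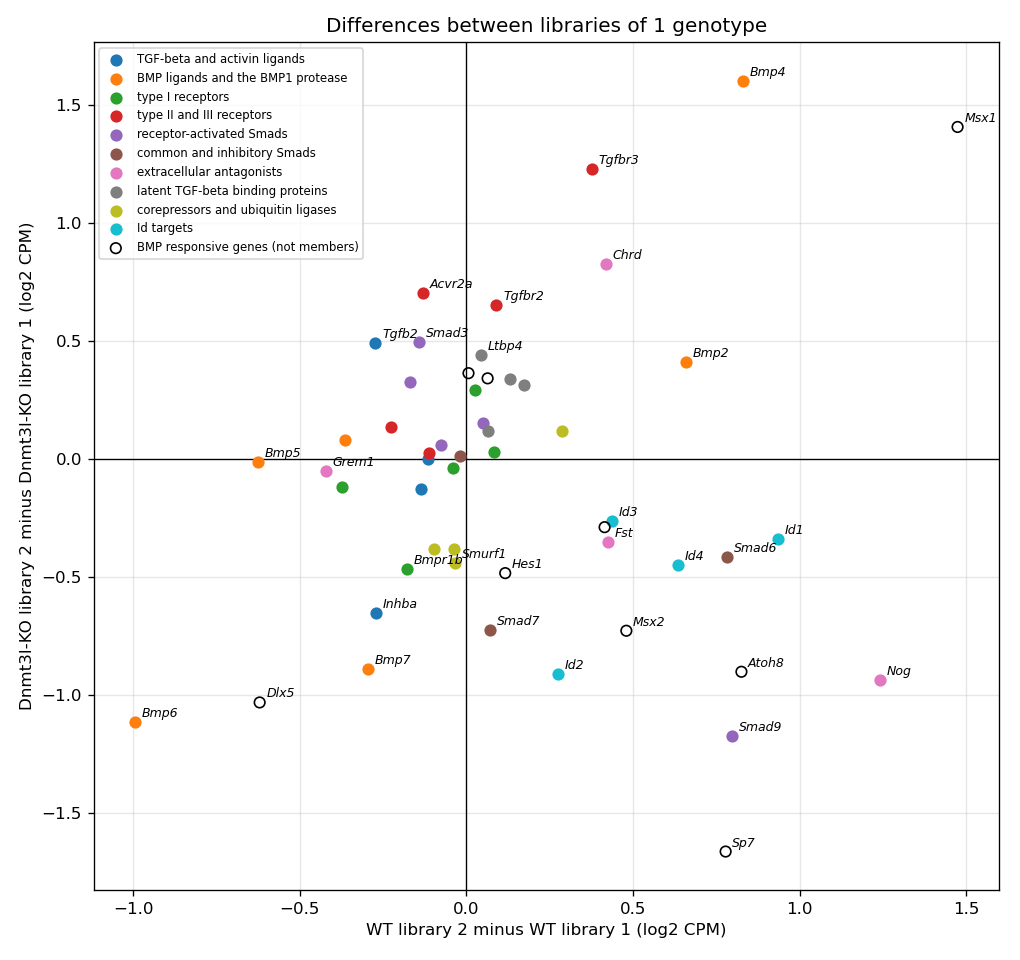
Log2 CPM difference between the 2 WT libraries (x axis) and between the 2 Dnmt3l-KO libraries (y axis) for the 44 genes, coloured by role, with other BMP responsive genes as open circles. Id1 to Id4, Smad6, Smad9, Nog and Fst lie at the lower right (high in WT 2 and Dnmt3l-KO 1), and Bmp4, Tgfbr3, Chrd and Bmp2 at the upper right (high in WT 2 and Dnmt3l-KO 2).

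Several genes outside the 44 also set the Dnmt3l-KO libraries apart from each other. Of the 10 fibroblast markers, 9 were higher in Dnmt3l-KO 2 than in Dnmt3l-KO 1, from 1.27-fold (Prrx1) to 4.70-fold (Col3a1), and Vim was not. Among them, Col3a1 had 471 and 368 CPM in WT against 190.2 and 895 CPM in Dnmt3l-KO 1 and 2, and Pdgfra had 23.4 and 38.6 CPM in WT against 17.2 and 65.4 CPM in Dnmt3l-KO. The summed level of the smooth muscle and pericyte markers was 5144 and 4148 CPM in WT against 5868 and 3829 CPM in Dnmt3l-KO. Cartilage markers summed to 249.6 and 293.6 CPM in WT against 252.8 and 348.4 CPM in Dnmt3l-KO. The part of these differences in the spread of the 44 genes was not tested.

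Promoter windows from RefSeq (GRCm38.p6, 250 bases before to 50 after each start) were found for 32 of the 44 genes, 40 windows of 32851 in all. The motifs searched, on both strands, were GTCTAGAC, a pair of Smad boxes, GGCGCC, a GC-rich element bound by BMP Smads, and TGANTCA. The last, with any base at N, is a loose form of the AP-1 element at which Smad3 can join AP-1. No motif of the 3 overlaps another in the sites printed here. GTCTAGAC was in 1 of the 40 windows, that of Smad6, and in 0.213% of all windows. GGCGCC was in 37.5% of the 40 windows and in 11.9% of all. Its 13 genes were Id2, Id4, Smad9, Smad5, Acvr1b, Bmpr1a, Bmpr2, Tgfbr1, Chrd, Grem1, Ltbp4, Ski and Smurf2, which were placed in different ways between the libraries, and the window of Id3 did not hold it. TGANTCA was in 1 of the 40, that of Ltbp3, and in 7.81% of all. The 40 windows had a median of 66.6% G and C and 22 CpG sites, against 52.4% and 6 over all windows, and GGCGCC consists of G and C alone.

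The sites shown, with the motif in capitals, are those of Ltbp3 and of the Id and Smad genes with a match that were higher in WT 2 than in WT 1 and in Dnmt3l-KO 1 than in Dnmt3l-KO 2, which are Smad6, Id4, Id2 and Smad9. They lie at chr9:64022045-64022074 (- strand), chr13:48260956-48260985 (+ strand), chr12:25096306-25096335 (- strand), chr3:54755519-54755548 (+ strand) and chr19:5740883-5740911 (+ strand). The motif begins 148 bases before the start in Id4, 231 before it in Id2 and 51 before it in Smad9. Those of Smad6 and Ltbp3 cross the start, beginning 4 and 6 bases before it. A match is a run of letters and not a measured binding site.
Smad6: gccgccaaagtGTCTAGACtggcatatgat
Id4: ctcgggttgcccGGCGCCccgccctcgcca
Id2: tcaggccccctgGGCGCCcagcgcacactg
Smad9: gcacggccgcctGGCGCCcttccagcgcgg
Ltbp3: ctaagttctttTGAGTCAgacactggatc

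At the level of transcripts no difference passed either. The 44 genes have 156 transcripts in the table, 10 of them with a single one. Of the other 34, the leading transcript by FPKM was the same in all libraries in 27 and differed in 7, Acvr2b, Bmp1, Bmp4, Bmpr1a, Chrd, Ltbp4 and Tgfb2. With transcripts as features, edgeR called 0 of the 139 that were tested, beside 0.00252% of all 39633 transcripts. At an unadjusted p under 0.05, 4 of the 139 were higher in Dnmt3l-KO, beside 2.17%, and 2 were lower, beside 1.95%. For Bmp4 the predicted variant X1 led in WT 1 and WT 2, with 52.2% and 43.6% of the FPKM, against 34.8% and 37.9% for the curated transcript. The curated transcript led in Dnmt3l-KO 1 and Dnmt3l-KO 2, with 47.5% and 41.1%, against 39.9% and 31.8% for X1. The log2 fold change of X1 was -0.30 ± 0.48 (SE, edgeR, unadjusted p = 0.563). That of the curated transcript was 0.38 ± 0.57 (SE, edgeR, unadjusted p = 0.53). In 12 of the 44 genes GENCODE places a gene of the opposite strand over an exon, and no source used here states that counting used strand, so reads of such pairs cannot be told apart where they overlap.

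Of 113 further pathway genes in 6 lists by role, 96 were tested and 0 passed in edgeR. At an unadjusted p under 0.05, 8 of 96 were higher in Dnmt3l-KO, beside 2.34% of all genes, and 0 were lower, beside 1.81%. The median log2 fold change of the 96 was 0.10, with 64 above and 32 below 0, beside 51.3% above 0 over all genes. Of 15 tested ligand genes, 1 was among the 8, Bmp8a, at 1.76 ± 0.359 CPM in WT against 2.96 ± 0.432 CPM in Dnmt3l-KO (SD, n = 2 each, log2 fold change 0.75 ± 0.28 SE, edgeR, unadjusted p = 0.0459). Gdf6 had the next smallest p of that list, with 0.998 and 1.53 CPM in WT against 2.99 and 1.63 CPM in Dnmt3l-KO (log2 fold change 0.87 ± 0.43 SE, edgeR, unadjusted p = 0.0957). Bmp10, Gdf2, Nodal, Inhbc and Inhbe were at 0 in all libraries. None of 9 tested receptor and coreceptor genes was among the 8. There the smallest p belonged to Rgma, a BMP coreceptor, at 3.61 and 2.88 CPM in WT against 3.45 and 7.73 CPM in Dnmt3l-KO (log2 fold change 0.78 ± 0.43 SE, edgeR, unadjusted p = 0.13), and to Tgfbrap1, at 27.8 and 30.1 CPM in WT against 35.5 and 29.3 CPM in Dnmt3l-KO (log2 fold change 0.16 ± 0.13 SE, edgeR, unadjusted p = 0.275).

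Of 22 tested extracellular modulators, 1 was among the 8, Tsku, an extracellular BMP inhibitor, with 47.6 and 53.7 CPM in WT against 62.7 and 60.4 CPM in Dnmt3l-KO (log2 fold change 0.28 ± 0.10 SE, edgeR, unadjusted p = 0.0426). Tll2, next in that list, had 0.17 and 0.0959 CPM in WT against 0.26 and 0.263 CPM in Dnmt3l-KO (log2 fold change 0.95 ± 0.56 SE, edgeR, unadjusted p = 0.15). Of 21 tested intracellular modulators, 4 were among the 8, Tgif2, Dab2, Pias4 and Ube2o. Tgif2, a corepressor of Smad2 and Smad3, had 3.65 and 5.97 CPM in WT against 9.26 and 12.2 CPM in Dnmt3l-KO (log2 fold change 1.16 ± 0.29 SE, edgeR, unadjusted p = 0.0111), the largest of the 8. Dab2, an endocytic adaptor that binds TGF-beta receptors and Smads, had 55.7 and 58.7 CPM in WT against 67.6 and 72.3 CPM in Dnmt3l-KO (log2 fold change 0.29 ± 0.09 SE, edgeR, unadjusted p = 0.026). Pias4, a SUMO ligase that acts on Smads, had 16.1 and 17.5 CPM in WT against 20.5 and 21.1 CPM in Dnmt3l-KO. Ube2o had 37.1 and 38.6 CPM in WT against 46.2 and 43.7 CPM in Dnmt3l-KO. For Tsku, Tgif2, Dab2, Pias4 and Ube2o the groups did not overlap. These genes were named for a small p in the same comparison, so this is no added support. Both Dnmt3l-KO libraries lay above both WT libraries for 17 of the 96 genes, beside 16.2% of all genes. Both lay below for 5 of the 96, beside 16.5%.

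TGF-beta responsive genes held 1 of the 8 among 20 tested, Snai2, the transcription factor SLUG, with 29.5 and 33.4 CPM in WT against 40.8 and 40.7 CPM in Dnmt3l-KO (log2 fold change 0.38 ± 0.11 SE, edgeR, unadjusted p = 0.0168). Snai1, next in that list, had 22.1 and 26.8 CPM in WT against 27.6 and 30.5 CPM in Dnmt3l-KO (log2 fold change 0.25 ± 0.14 SE, edgeR, unadjusted p = 0.126). Among 9 tested BMP responsive genes the 1 of the 8 was Gata2, with 10.7 and 14.2 CPM in WT against 19.8 and 16.2 CPM in Dnmt3l-KO (log2 fold change 0.53 ± 0.19 SE, edgeR, unadjusted p = 0.0373). Hes1, next in that list, had 45.6 and 49.4 CPM in WT against 62.8 and 44.9 CPM in Dnmt3l-KO (log2 fold change 0.18 ± 0.18 SE, edgeR, unadjusted p = 0.362), with overlapping groups.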

How the data were processed

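The labels describe rRNA-free RNA copied with random primers and amplified over 12 PCR cycles, from 2 WT and 2 Dnmt3l-KO libraries. The submitters' processing notes name mm10, eXpress 1.4.1, TopHat2 2.0.12, DESeq2 1.8.0 and Cufflinks 2.2.1, without saying what each did. Per the file headers, each RefSeq transcript has, in every library, an estimated count (whole numbers in this deposited table) and an FPKM. Per the same headers, the authors' comparison adds a mean signal, a log2 fold change with SE, a test score, and raw and adjusted p-values. They are quoted only where the authors' deposited table is named.

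Estimated counts and FPKM values of the 116415 transcripts were summed per symbol. The comparison, Dnmt3l-KO minus WT, used edgeR 4.0.16 under R 4.3.3 with TMM, filterByExpr and the robust quasi-likelihood F-test, over 14760 genes, with Benjamini-Hochberg adjustment over all of them, and each p here comes from that fit unless another tool is named. CPM use TMM library sizes. FPKM compare genes, and CPM compare libraries. The test was run on simulated counts only as a check of the code, and no result here rests on that run. The 44 genes and the other lists were chosen with earlier results of these data known, and the counts over them carry no test. Fold changes with errors are given for those of the 44 at an unadjusted p under 0.05, for the highest level and the smallest p in each role, and for the 2 smallest p of each other list. Genes named outside that rule were chosen after their values were seen. Alternatives were other scalings and filters, DESeq2 1.42.0, limma 3.58.1 (voom, and log2 of FPKM plus 1 or 0.1), transcripts as features, a replicate block and leaving out each library. Promoter sequences are from RefSeq (GRCm38.p6) and exons from GENCODE of GRCm38. Depth bounds low genes: a count of 3, used as a floor, came to 0.0601 to 0.0719 CPM and covers counting error only, since amplified reads are not independent molecules. Some results are not reported here.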

Additional observations from a re-analysis of the deposited data

How the results depend on the processing

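None of the 44 genes passed an adjusted p of 0.05 under any of the 14 gene-level alternatives or with transcripts as features, and the lowest adjusted p was 0.244, without Dnmt3l-KO replicate 2. With a mean CPM of at least 1, 42 of the 44 were tested. Where a genotype is left with 1 library, that library is assumed to vary like those of the other genotype. Tgfb1 stayed at an unadjusted p under 0.05 in all 14, with a log2 fold change of 0.47 to 0.61 over the fits that left out a library, Ltbp3 in 9 and Ltbp4 in 7. The 3 calls over all genes became 8 without the filter, 31 in DESeq2, 6 and 9 in limma on log2 of FPKM plus 1 and 0.1, 1 with transcripts as features, and 2 to 6 without 1 library. The median log2 fold change of the 44 genes (0.09) was 0.0735 with upper-quartile factors, 0.111 and 0.118 on log2 of FPKM plus 1 and 0.1, and 0.0604 to 0.104 without 1 library. With upper-quartile factors 5 genes, against 3, lay below WT in both Dnmt3l-KO libraries. These causes were not tested.

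The labels do not pair libraries of the same number. With the replicate number as a replicate block, edgeR called 4 genes and 0 of the 44, their median was 0.0774, and Smad3 stood at -0.0026. Same-numbered libraries deviated together with a correlation of 0.0999 across genes, over 2 pairs.

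Of 432 values of 31 named genes under the alternatives, 414 kept their direction and 18, in 11 genes, had the opposite sign, 12 of them without 1 library. Smad3 was -0.0036 in limma-voom. Smad4 was 0.0067 and 0.0069 and Ltbp1 0.0293 and 0.0296 on log2 of FPKM plus 1 and 0.1. Without 1 library the ranges were -0.11 to 0.55 (Inhba), -0.12 to 0.25 (Bmp1), -0.185 to 0.105 (Bmpr1a), -0.25 to 0.40 (Tgfbr2), -0.33 to 0.89 (Tgfbr3), -0.25 to 0.24 (Smad3), -0.20 to 0.53 (Smad7), -0.067 to 0.052 (Ltbp1), -0.417 to 0.0201 (Id3) and -0.083 to 0.402 (Hes1).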
